A study of Danio rerio with 4 samples.

Results

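The intervals beside 10 zebrafish genes of cell adhesion and cell movement were followed through 4 lists of chromatin immunoprecipitation sequencing (ChIP-seq) intervals: the cadherins cdh1 and cdh2, the protocadherin pcdh8, the Snail genes snai1a, snai1b and snai2, the fibronectins fn1a and fn1b, the integrin itga5 and the polarity gene vangl2. An interval belonged to a gene when either of its 2 flanking-gene columns named it. This gave 172 of 22907 intervals: 39 of 6129 in the Sox2 list, 38 of 7130 in that of late blastula Pou5f1-Flag, 26 of 7747 in that of the 512-cell stage and 69 of 1901 in that of Input. Of the 10 genes, 9 were named in at least 1 list under the accessions of the RefSeq table. Snai1a was not, and whether an accession missing from that table belongs to it could not be settled here. The share of all genes of that table named in any list was not computed.

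Sox2 was precipitated from wildtype embryos at late blastula. Pou5f1-Flag was precipitated at late blastula and at the 512-cell stage from embryos that lack maternal and zygotic spiel ohne grenzen (MZspg) and had been injected with mRNA for the tagged protein. For the late blastula sample the labels put the injection at the 1-cell stage, in an amount just enough to rescue the mutant. Input was unprecipitated chromatin of wildtype late blastula embryos. All 4 samples came from whole embryos, with 1 sample per group, so no difference has a replicate check and tissues cannot be separated. Paraformaldehyde was at 1% for all 4. The late blastula ChIP samples were made from 20000000 nuclei and the 512-cell sample from 2000000. No Input of injected or 512-cell embryos was analysed here.

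Classical cadherins hold cells together by binding the same cadherin on a neighbour, and Cdh1 (E-cadherin) is the one on which the blastula relies for epiboly, the spreading of the blastoderm over the yolk. Snail factors are zinc finger repressors known in vertebrates for lowering cadherin 1 during the epithelial-to-mesenchymal transition (EMT). Fibronectin is an extracellular matrix protein that cells grip through integrins such as alpha 5, the product of itga5. Sox2 and Pou5f1, whose mammalian counterpart is called Oct4, are transcription factors of the early embryo, and in zebrafish they act at the time when the zygotic genome is switched on.

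Beside an interval that overlapped no Input interval ("Input-free"), 8 of the 10 genes were named by the Sox2 list, 7 by that of late blastula Pou5f1-Flag and 5 by that of the 512-cell stage. In all, 9679 genes were named in any list, counting each accession without a match in the RefSeq table as a gene. Of these, the Sox2 list named 51.2% beside an Input-free interval, the late blastula Pou5f1-Flag list 54.1% and the 512-cell list 72.4%. Of the 9 genes named at all, the late blastula lists named 88.9% and 77.8%, above that share, and the 512-cell list 55.6%, below it. Fn1b and vangl2 are among the 9 through 1 Sox2 interval each, which raises the Sox2 share and lowers the other 2. The 10 genes were also chosen with earlier results of these data known. The shares are thus a description of 9 genes, and nothing is concluded from them. At a false discovery rate of 1% or less, which 18.7% of the 512-cell intervals meet, that list named 2 of the 10 genes (cdh2 and fn1a). The limit was met by 81.0% of the Sox2 intervals and 60.0% of the late blastula Pou5f1-Flag ones. At this limit the Sox2 list named 7, having lost fn1b, and the late blastula Pou5f1-Flag list still 7. The share of all named genes at this limit was not computed, so these counts cannot be read as particular to the 10 genes. Cdh2, snai1b, fn1a and itga5 were in all 3 ChIP lists, as were 24.9% of all named genes. The counts of the 10 genes leave out an accession, described below, that may belong to snai1a. All 3 ChIP lists name it beside an Input-free interval. Cdh1 and snai2 were in both late blastula ChIP lists and not at 512 cells, and pcdh8 was in both Pou5f1-Flag lists and not for Sox2. Fn1b and vangl2 were named for Sox2 alone, beside 1 interval each, which for fn1b had a false discovery rate of 1.41%. The shares of all named genes in these last combinations of lists were not computed. The combinations thus cannot be read as particular to these genes.

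The number of reads in an interval is the authors' own value, and it was ranked within its list alone. The median percentile of the Input-free intervals of these genes, the share of the list's intervals with fewer reads, was 56.4% in the Sox2 list, 38.8% in that of late blastula Pou5f1-Flag and 30.8% in that of the 512-cell stage. Of 83 such intervals, 3 were in the top 10% of their list: a Sox2 and a late blastula Pou5f1-Flag interval beside itga5, and a late blastula Pou5f1-Flag interval beside cdh2.

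**Figure D1:**
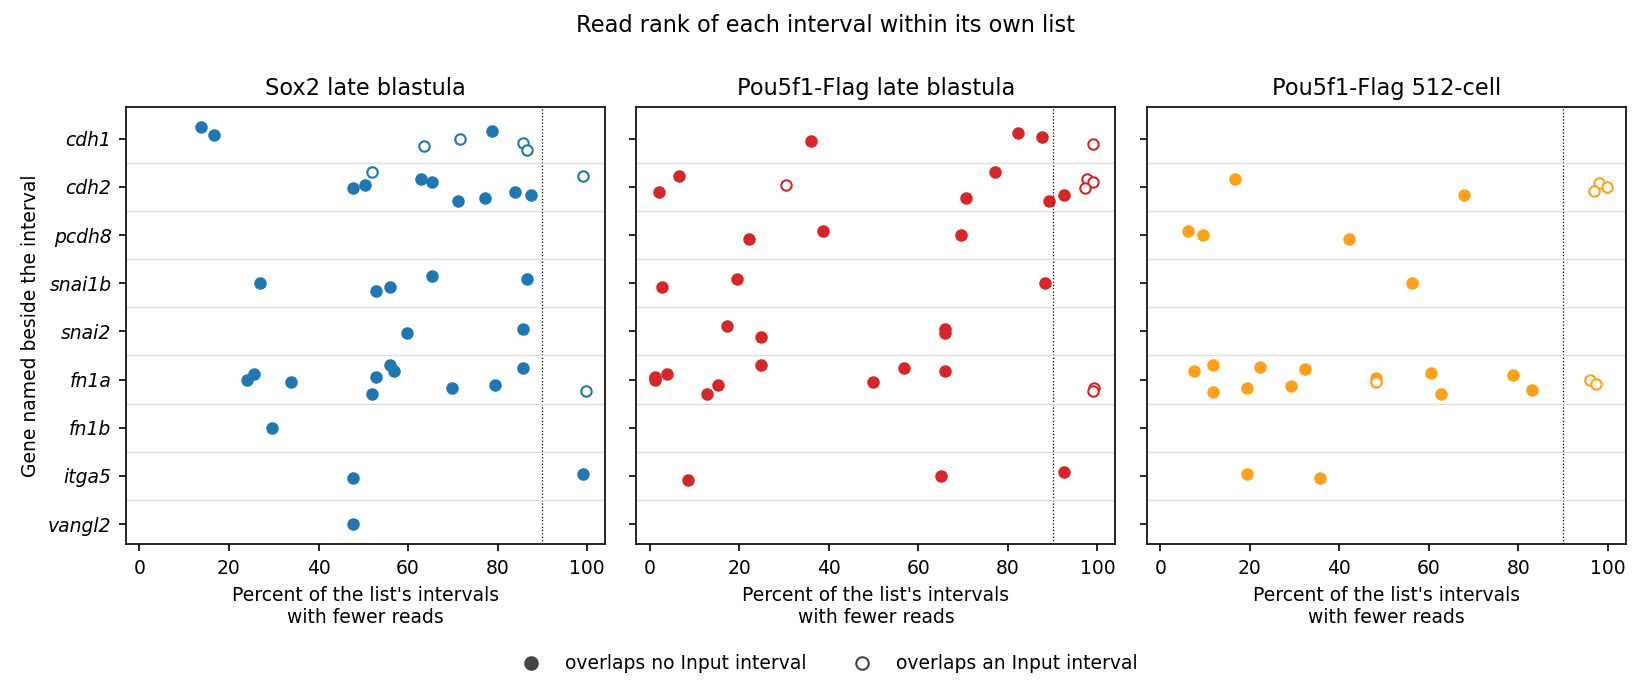
Each point is an interval beside the gene on the vertical axis, placed on the horizontal axis by the percent of its list's intervals that have fewer reads, and open points overlap an Input interval. Points right of the dotted line at 90% are in the top 10% of the list. They are 3 filled points, at itga5 and cdh2, and 13 open ones at cdh1, cdh2 and fn1a.

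The strongest Input-free Sox2 interval of each gene had 524 reads beside itga5 (exact Poisson 95% interval 480 to 571, counting error only), 169 beside cdh2 (144 to 196), 161 beside snai1b, 156 beside snai2, 155 beside fn1a (132 to 181) and 121 beside cdh1 (100.4 to 145). Vangl2 had 61 (46.7 to 78.4) and fn1b 45 (32.8 to 60.2). Itga5 stood above the rest by more than counting error. From cdh2 to cdh1 the counting intervals overlapped, and so did those of vangl2 and fn1b.

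For late blastula Pou5f1-Flag the order was cdh2 and itga5 with 119 reads each (98.6 to 142), snai1b with 95 (76.9 to 116), cdh1 with 93 (75.1 to 114), pcdh8 with 57 (43.2 to 73.9), and snai2 and fn1a with 53 each (39.7 to 69.3). The first 4 overlapped in their counting intervals, and so did the last 3. At 512 cells fn1a had 81 reads (64.3 to 100.7), cdh2 61, snai1b 55, pcdh8 50 and itga5 48 (35.4 to 63.6), and neighbours in that order overlapped throughout.

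Cdh1 encodes E-cadherin. All its Input-free intervals lay within 3.95 kb on chromosome 7 (all coordinates are Zv9, counted from 1, with the gene at lower coordinates named first), between trip4 and cdh1. The main position held 121 Sox2 reads (56194267 to 56194747, rank 1285 of its list) and, for late blastula Pou5f1-Flag, which lists it 2 times, 93 (56194266 to 56194715) and 78 reads (56194158 to 56194713). The centres of the Sox2 interval and of the stronger Pou5f1-Flag interval were 16.5 bp apart. The next shared position held 36 Sox2 reads (56194885 to 56195181) and 35 Pou5f1-Flag reads (56194910 to 56195168, false discovery rate 2.77%). Another Sox2 interval of 34 reads (56191233 to 56191532) had no Pou5f1-Flag interval within 2625 bp. At 512 cells no interval named cdh1, and the nearest in that list was 371778 bp away from this group.

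Cdh2 encodes N-cadherin, the cadherin of the neural plate. The gene columns change from psma6b and cdh2 to cdh2 and aqp4 between 17785931 and 17786539 on chromosome 20. This gap of 607 bp holds the point from which the authors' annotation told the lower from the higher side of the gene. Which part of the gene it is was not analysed here. Within 10000 bp of this gap lay 7 of its 8 Input-free Sox2 intervals, spread over 17754 bp (17779063 to 17796816) with 61 to 169 reads and a median of 86. They stood on both sides of the gap, 2 below and 5 above.

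Of the 7, 2 were shared with late blastula Pou5f1-Flag, against 28.1% of all Input-free Sox2 intervals. One held 169 Sox2 reads (17792512 to 17792998) and 99 and 58 Pou5f1-Flag reads (17792527 to 17792979 and 17792522 to 17792929), with centres 2 bp apart. The other held 144 Sox2 reads (17789535 to 17789988) and 119 Pou5f1-Flag reads (17789503 to 17790043), with the Sox2 centre offset by -11.5 bp, towards lower coordinates. A Sox2 interval of 115 reads (17796406 to 17796816) had no Pou5f1-Flag interval within 3426 bp. The 2 shared Sox2 intervals had the most reads of the 7. Both Input-free cdh2 intervals of the 512-cell list lay far off, with 61 reads (18218344 to 18218621) and 42 reads (16932845 to 16933100). Beside the first that list names cdh2 and psma8, where the Sox2 list names cdh2 and aqp4 at 18191024. The second stands between nfkbiaa and cdh2, where late blastula Pou5f1-Flag names psma6b and cdh2 at 16955316. That cdh2 is named beside an Input-free interval of the 512-cell list rests on these 2. Distant intervals were not limited to that list. The other Input-free Sox2 interval, of 98 reads (18191024 to 18191409), lay at least 404485 bp from the gap. Late blastula Pou5f1-Flag had intervals of 68 (16955316 to 16955779), 23 (17002436 to 17002687) and 19 reads (17761919 to 17762170). They lay at least 830152, 783244 and 23761 bp from the gap, in that order. The 3 other Input-free listings of late blastula Pou5f1-Flag were at the 2 shared positions.

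Pcdh8 (paraxial protocadherin, Papc) is known for cell movement in the paraxial mesoderm. It had 3 intervals in each Pou5f1-Flag list and none for Sox2. At late blastula these held 57 (chromosome 9, 55677318 to 55677657), 36 and 30 reads, and at 512 cells 50 (55673261 to 55673520), 39 and 37 reads. The strongest of each stage were 3797 bp apart and did not overlap. The smallest gap from any of the 6 to a Sox2 interval was 330692 bp.

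Among the Snail genes, snai2 (Slug) had its strongest Sox2 interval as the first one above the change of the gene columns from pcmtd1 and snai2 to snai2 and ube2v2. It held 156 reads (chromosome 24, 36888659 to 36889072). It was shared with a late blastula Pou5f1-Flag interval of 31 reads (36888741 to 36888992, false discovery rate 2.77%), with centres 1 bp apart. The stronger Pou5f1-Flag position of snai2, with 53 reads in each of its 2 listings (36882482 to 36882832), lay 5826 bp from it and had no Sox2 interval. In the 512-cell list the nearest interval to the shared position was 291591 bp away.

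Snai1b had 5 Sox2 intervals on chromosome 23. The strongest, with 161 reads (2491391 to 2492068), had no Pou5f1-Flag interval within 15828 bp. Of the other 4, 2 were shared with late blastula Pou5f1-Flag. At the tcp1 side 1 held 43 Sox2 and 29 Pou5f1-Flag reads (2507769 to 2508166, Pou5f1-Flag false discovery rate 1.33%). At the zgc:114123 side the other held 67 and 20 reads (2694302 to 2694667), and 2.81% of the Pou5f1-Flag list had fewer than 20. It lay at least 157203 bp above the change of the gene columns from tcp1 and snai1b to snai1b and zgc:114123. The strongest late blastula Pou5f1-Flag interval, with 95 reads (2637256 to 2637868), and the 512-cell one, with 55 reads (2614681 to 2614977), were 22278 bp apart and neither was shared with Sox2. They lay at least 100157 and 77582 bp, in that order, above the change of the gene columns.

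Snai1a was named by no list under the 2 accessions that the RefSeq table gives it. The lists name an accession absent from that table, NM_131066, between mir499a and top1a on chromosome 11. In the table (assembly GRCz12tu, used for names and neighbours alone) snai1a precedes top1a, with 2 protein-coding genes in between that no list names. By these neighbours NM_131066 may be an older accession of snai1a, but no source used here assigns it to a gene. Its intervals were therefore not counted for snai1a, and they are given by accession. A position above NM_131066 was in all 3 ChIP lists, with 88 Sox2 reads (26207367 to 26207792), 82 late blastula Pou5f1-Flag reads in each of 2 listings (26207409 to 26207791 and 26207381 to 26207857) and 144 reads at 512 cells (26207335 to 26207803, rank 390 of its list). A second, below it, held 155 Sox2 reads (26190525 to 26190958), 36 late blastula Pou5f1-Flag reads (26190445 to 26190737) and 131 reads at 512 cells (26190567 to 26190998, where that list names mir499a and top1a). None of these overlapped Input. Both positions were in the top 10% of the 512-cell list and in no other list's. No Input-free interval whose columns in that list name any of the 10 genes was in its top 10%. By position, though, the 512-cell interval of 206 reads at itga5 was (97.9% of the list with fewer, against 94.9% and 93.8% here). Like the second position here, that list names it by other genes.

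Itga5 encodes the alpha 5 subunit of the fibronectin receptor. Its Sox2 interval of 524 reads (chromosome 23, 33759693 to 33760414, between slc48a1a and itga5) ranked 57 of 6129, and 99.1% of the list had fewer reads. No late blastula Pou5f1-Flag interval overlapped it. The 512-cell list has one there with 206 reads (33759639 to 33760197, 97.9% of its list with fewer), but names slc48a1a and pou6f1 beside it, so it is no itga5 interval by that list's own columns. Late blastula Pou5f1-Flag had its interval of 119 reads (33762342 to 33762905), listed also with 52 reads (33762540 to 33762876), 1927 bp beyond the Sox2 one. A Sox2 interval of 61 reads (33761554 to 33761890) lay between, 451 bp short of it. The late blastula intervals of Sox2 and Pou5f1-Flag thus stood next to each other and did not overlap. Above the gene, beside itga5 and pou6f1, were 2 intervals at 512 cells with 43 (33801602 to 33801889) and 48 reads (33829126 to 33829387) and a late blastula Pou5f1-Flag interval of 24 reads, none shared.

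**Figure D2:**
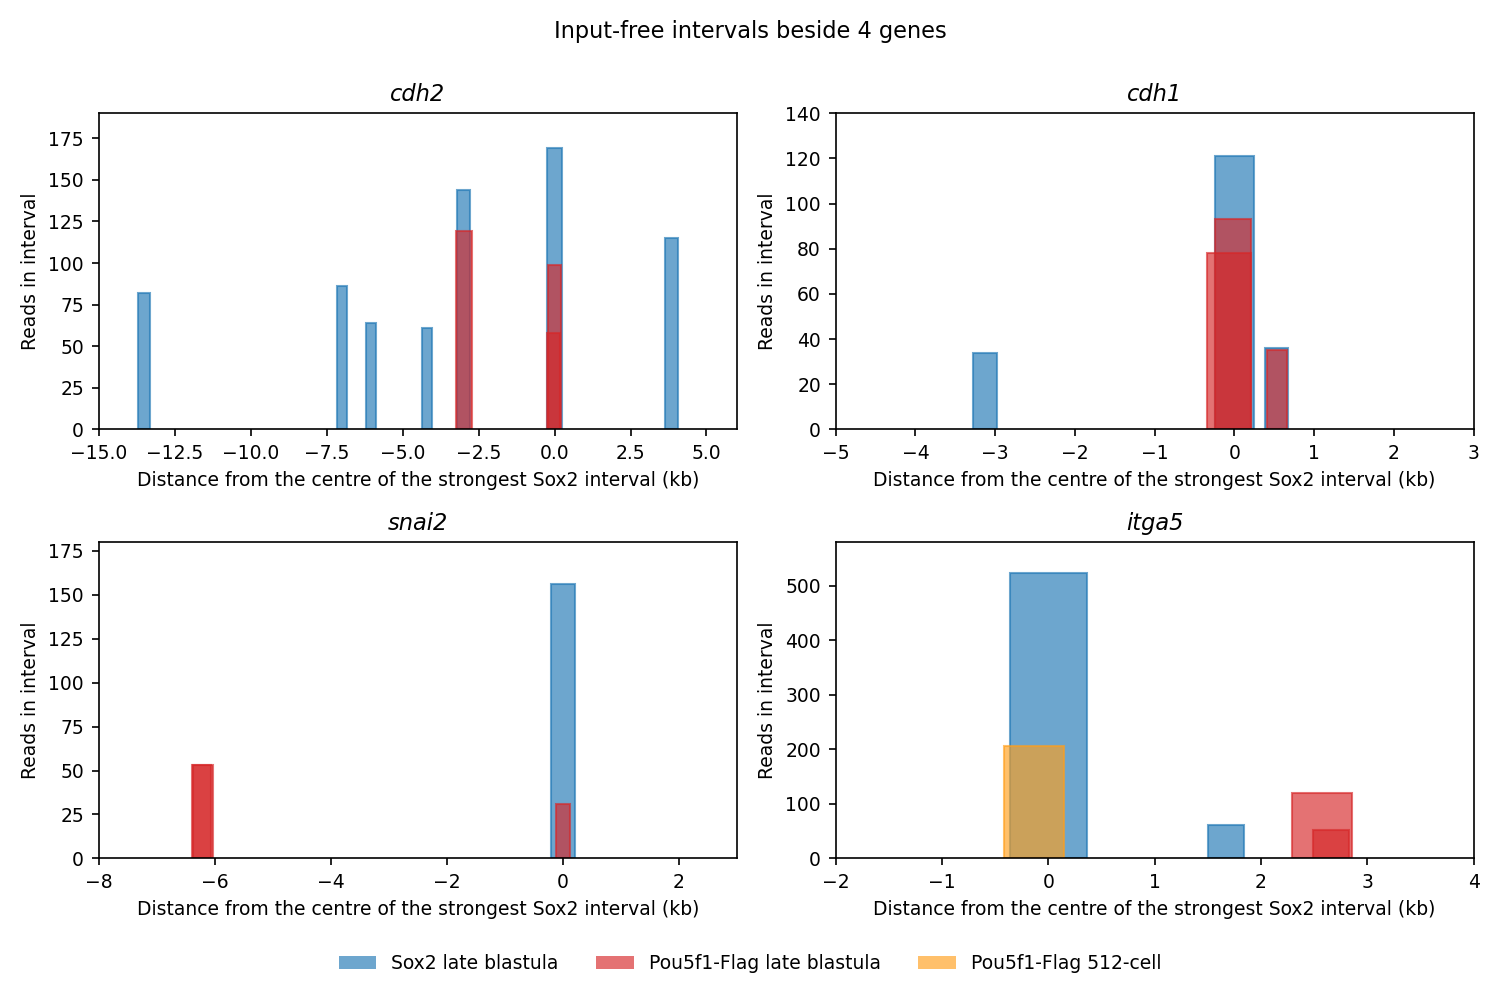
Bars are intervals, drawn to their width and to their reads on the vertical axis, with distance in kb from the centre of the gene's strongest Input-free Sox2 interval on the horizontal axis. Sox2 and late blastula Pou5f1-Flag bars coincide at 2 positions of cdh2, 2 of cdh1 and 1 of snai2. The Pou5f1-Flag bars of 35 reads at cdh1 and 31 reads at snai2 have a false discovery rate of 2.77%. At itga5 the 524-read Sox2 bar coincides with the 206-read 512-cell bar, which that list names by other genes.

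Fibronectin 1a (fn1a) had the most Input-free intervals of the 10 genes: 10 in the Sox2 list, 9 in that of late blastula Pou5f1-Flag and 12 in that of the 512-cell stage. Of the genes these lists name beside an Input-free interval, 98.4%, 97.1% and 99.6% had fewer. These are counts of listings, and the 9 hold 1 position in 2 listings (14886773 to 14887064 and 14886831 to 14887092). The fn1a intervals were spread over 1742 kb of chromosome 9, so many lay far from the gene. The columns change from nrp2b and fn1a to fn1a and upp2 within a gap of 14160 bp, bounded by a Sox2 interval of 124 reads (15688363 to 15688840) and a late blastula Pou5f1-Flag interval of 41 reads (15703001 to 15703272). Neither of these was shared. Sox2 and late blastula Pou5f1-Flag shared 2 positions. The stronger held 155 and 45 reads (14879024 to 14879494) and lay at least 809346 bp from that gap. The other held 95 and 27 reads (15718676 to 15719121), with a Pou5f1-Flag false discovery rate of 2.77%. The strongest of the 12 Input-free 512-cell intervals had 81 reads (16198958 to 16199336). None of the 12 was shared, where 10.2% of that whole list was shared with late blastula Pou5f1-Flag and 7.32% with Sox2.

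Fn1b, the other fibronectin gene, was named beside 1 Sox2 interval of 45 reads between atic and fn1b (chromosome 1, 4418609 to 4418980), with no Pou5f1-Flag interval of either stage within 176603 bp. Vangl2 encodes a membrane protein of the planar cell polarity pathway, needed for convergence and extension in the gastrula. It was likewise named beside 1 Sox2 interval, of 61 reads between zgc:195075 and vangl2 (chromosome 7, 6218529 to 6218873), and the nearest Pou5f1-Flag interval was 195845 bp away. Both genes thus lacked Pou5f1-Flag in these lists, and their Sox2 intervals had fewer reads than the median of 63 in that list.

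Over the 10 genes, 9 of 32 Input-free Sox2 intervals (28.1%, exact binomial 95% interval 13.7 to 46.7) were shared with late blastula Pou5f1-Flag, by an overlap of at least 1 bp. Over the whole Sox2 list the share was also 28.1%. In the other direction 11 of 31 late blastula Pou5f1-Flag intervals (35.5%, 19.2 to 54.6) were shared with Sox2, against 31% of that list. Of these 31, 5 list a position a second time, and with overlapping intervals merged the share was 9 of 26 (34.6%). Both binomial intervals included the share of the whole list. With a false discovery rate of 1% or less in both lists the first share was 5 of 30 (16.7%, against 24.6% of the whole list) and the second 7 of 17 (41.2%, against 37.7%). The binomial intervals cover counting error over positions, and positions of 1 gene are not replicates.

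None of the 20 Input-free 512-cell intervals was shared with late blastula Pou5f1-Flag or with Sox2. The 20 leave out the 512-cell interval over the itga5 Sox2 one, which that list names by other genes. With NM_131066 counted, 1 of 21 (4.76%) was shared with each of the 2 lists. The exact binomial 95% interval of 0 of 20 goes up to 16.8%, which includes the 10.2% and 7.32% of the whole 512-cell list. Of the 20, 3 had a false discovery rate of 1% or less, and 0 of these 3 were shared with either list at that limit. Over the whole 512-cell list the shares at that limit were 23% with late blastula Pou5f1-Flag and 19.2% with Sox2. The 0 of 20 thus rests mostly on intervals above that limit. Of the 31 late blastula Pou5f1-Flag intervals, 0 were shared with the 512-cell list (0 to 11.2), against 14.1% of the whole list. This count rests on leaving out NM_131066: with its intervals, 2 of which list the same position, it was 3 of 34 (8.82%, 1.86 to 23.7), which includes 14.1%. Of the 32 Sox2 intervals, 1 was shared with the 512-cell list (3.12%, 0.0791 to 16.2), against 9.28% of the whole list. The 9 positions shared by the 2 late blastula ChIP lists were 2 each at cdh1, cdh2, snai1b and fn1a and 1 at snai2, with 36 to 169 Sox2 reads. The Pou5f1-Flag false discovery rate was above 1% at snai2 and at the weaker positions of cdh1 and fn1a (2.77% each). At the snai1b position of 29 Pou5f1-Flag reads it was 1.33%. At 1% or less snai2 thus had no shared position. Of 69 positions in all, 9 were in both late blastula lists, 1 (at itga5) in Sox2 and 512-cell Pou5f1-Flag, and 0 in all 3. The 2 positions of NM_131066 in all 3 are not among the 69. Shares of all positions of the lists in these combinations were not computed. The 0 in all 3 thus cannot be read as particular to these genes.

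Cdh1, cdh2 and fn1a were also named by Input. This is 3 of 10 genes, or 3 of the 9 named in any list (33.3%), against 9.39% of all genes named in any list. Input had 38 intervals beside fn1a, 29 beside cdh2 and 2 beside cdh1, and none beside the other 7. All but 1 stood in 4 clusters. The cdh2 cluster of 28 intervals (17016207 to 17065773) lay 720158 bp from the point of that gene and reached 3616 reads in 1 interval. The clusters of fn1a, of 29 (16012347 to 16036301) and 9 intervals (16107584 to 16116094), lay at least 309346 bp above its point, with up to 1822 and 139 reads. At cdh1 the 2 Input intervals with 290 and 4104 reads (56287902 to 56298576) lay on the side of snai3, with 4 Sox2 intervals of 83 to 162 reads over them.

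ChIP intervals of these 3 genes with the most reads were at these clusters. The 1105 Sox2 reads beside fn1a (16112033 to 16116530), the 549 beside cdh2 (17061491 to 17062988), the 978 and 815 late blastula Pou5f1-Flag reads beside fn1a (16022865 to 16027314 and 16107396 to 16111887), the 837 beside cdh1 (56295138 to 56298460), the 816 beside cdh2 (17031245 to 17034848) and the 1116 reads at 512 cells beside cdh2 (17062051 to 17064161) each overlapped Input. Of the 103 ChIP intervals of the 10 genes, 20 overlapped Input: 7 of 39 for Sox2 (17.9%, against 3.34% of the list), 7 of 38 for late blastula Pou5f1-Flag (18.4%, against 6.45%) and 6 of 26 at 512 cells (23.1%, against 2.25%). They held 13 of the 16 intervals in the top 10% of their lists. The same count over the whole lists was not computed, so it cannot be read as particular to these genes. The median Wilcoxon filter p of these 20, the authors' own value for each interval, was 0.00428, 0.0314 and 0.00718 in that order. For Input-free ones it was 4.04e-07, 0.00111 and 0.00382, and over the whole lists 3.14e-06, 0.00277 and 0.00178. The part of Input in these read counts was not tested.

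**Figure D3:**
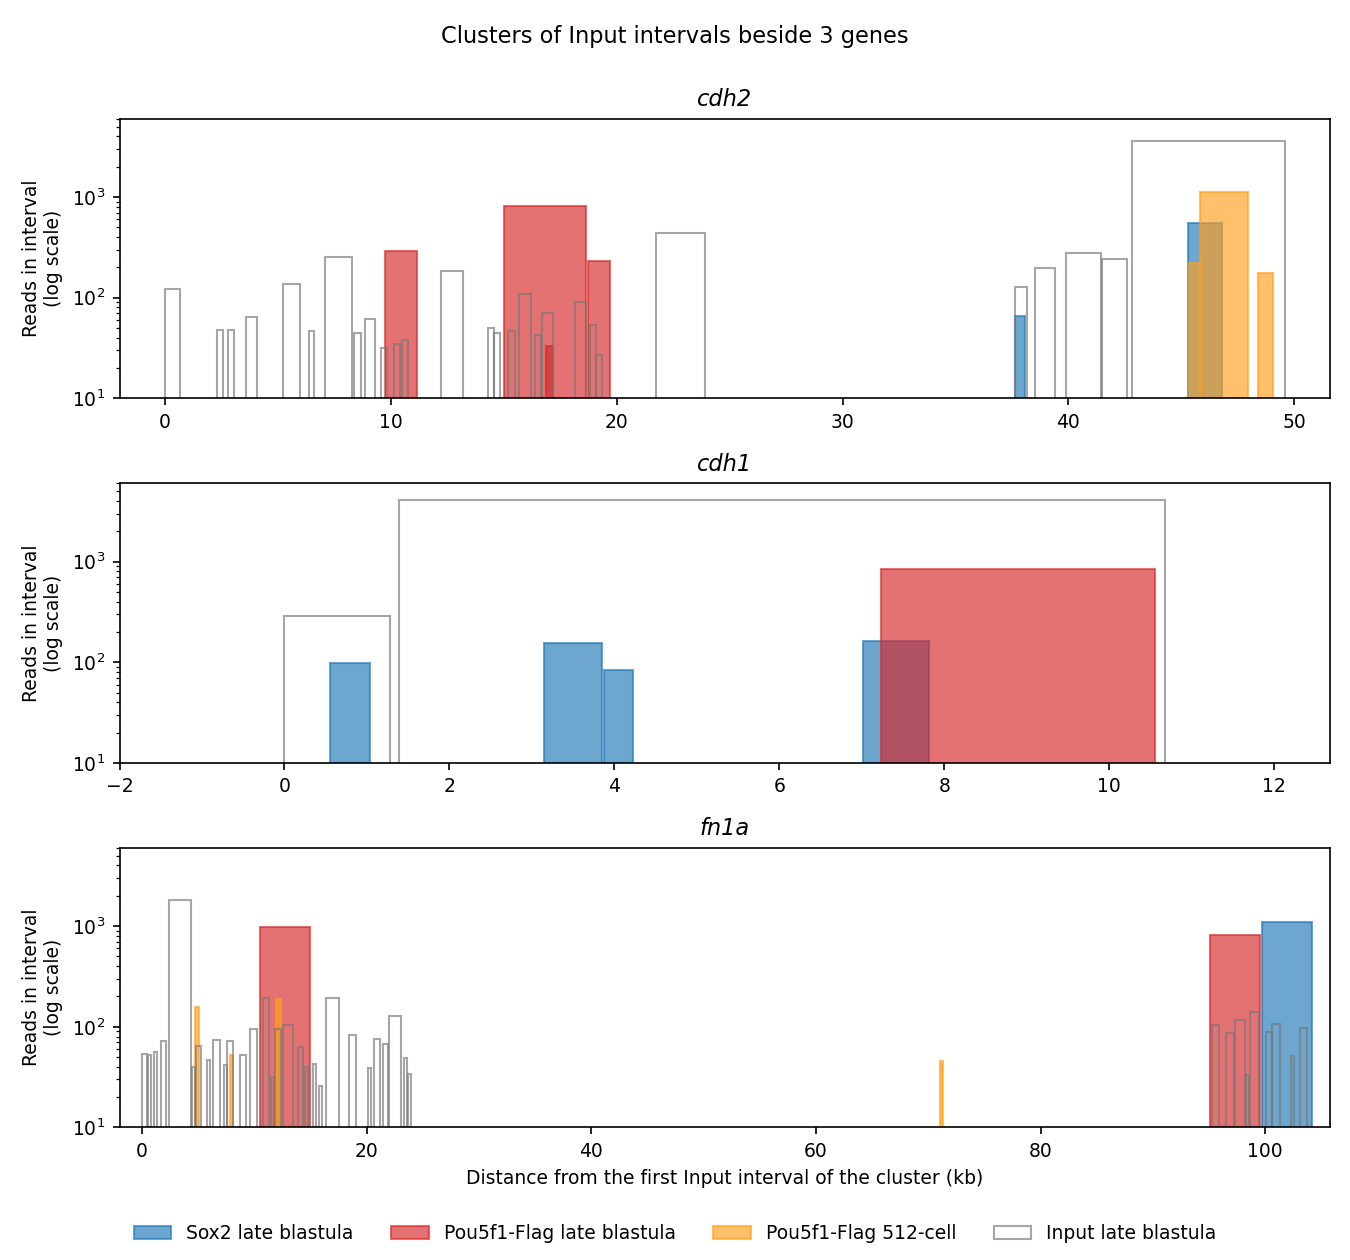
Intervals of all 4 lists are drawn to their width and to their reads (vertical log axis), by distance in kb from the first Input interval of the cluster beside each gene. Open grey bars are Input. The widest ChIP bars, such as 837 late blastula Pou5f1-Flag reads at cdh1 and 1105 Sox2 reads at fn1a, lie over Input bars.

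Other genes of adhesion and movement were counted from 4 lists of 83 genes in all, of which 57 were named in any list. The share of all genes of the RefSeq table that any list names was not computed. The 57 of 83, and such counts for each of the 4 lists below, thus cannot be read as particular to these genes. Of the 57, 42 (73.7%) were named by Sox2 beside an Input-free interval, 45 (78.9%) by late blastula Pou5f1-Flag, 48 (84.2%) by the 512-cell list and 6 by Input. The shares over all 9679 named genes were 51.2%, 54.1%, 72.4% and, for Input, 9.39%. In all 3 ChIP lists were 34 (59.6%, against 24.9%), or 13 at a false discovery rate of 1% or less. The share of all named genes at that limit was not computed. The lists were written with earlier results of these data known, and the counts are a description. A gene said below to be in no list is one not named under its accessions in the RefSeq table. Of each list's accessions 92.0% to 95.6% had a match there, so such a gene may stand in a list under an unmatched accession.

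Cadherins, protocadherins and catenins, the proteins that tie cadherins to actin, were named in 17 of 28 cases. All 17 were named at 512 cells (against 72.4% of all named genes), 15 (88.2%, against 54.1%) for late blastula Pou5f1-Flag, 14 (82.4%, against 51.2%) for Sox2 and 0 by Input. Their strongest Sox2 intervals were beside ctnnb1, the beta-catenin gene (417 reads, chromosome 16, 7452113 to 7452820), and pcdh19 (366 reads). Ctnnb1 (280 reads) and cdh15 (154 reads) led late blastula Pou5f1-Flag, and ctnna2, an alpha-catenin gene (279 reads), and cdh10a (178 reads) led the 512-cell list. Under the accessions of the RefSeq table, no list named cdh8, cdh17, ctnnb2, ctnnd1, epcam, pcdh1a, pcdh1b, pcdh7a, pcdh7b, pcdh9 or pcdh11.

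EMT regulators other than the 3 Snail genes were named in 11 of 12 cases, zeb1a being the exception. Sox2 named 8 (72.7%, against 51.2%), late blastula Pou5f1-Flag 7 (63.6%, against 54.1%), the 512-cell list 8 (72.7%, against 72.4%) and Input 2 (snai3 and scrt2). Zeb1b (174 reads) and twist2 (171 reads) had the strongest Sox2 intervals, scrt2 and twist3 (90 reads each) those of late blastula Pou5f1-Flag, and zeb2b (283 reads) and scrt2 (237 reads) those at 512 cells. Zeb and Twist genes encode further EMT factors.

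Of 23 integrin and matrix genes 14 were named, 9 (64.3%, against 51.2%) by Sox2, 11 (78.6%, against 54.1%) by late blastula Pou5f1-Flag, 10 (71.4%, against 72.4%) by the 512-cell list and 1 (ptk2ab) by Input. Pxna, the gene of the focal adhesion protein paxillin (299 reads), and lamc1, a laminin gene (282 reads), led Sox2, ptk2ab, a focal adhesion kinase gene (96 reads), and has2, a hyaluronan synthase gene (90 reads), led late blastula Pou5f1-Flag, and lamb1a (136 reads) and itgb1b (121 reads) led the 512-cell list. Itga4, itga6a, itga8, itga9, itga10, itgav, itgb3a, tln1 and ilk were in no list. The 524 Sox2 reads of itga5 exceeded the strongest Input-free Sox2 interval of each of the 9 genes that the Sox2 list named.

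Planar cell polarity genes were named in 15 of 20 cases, 11 (73.3%, against 51.2%) for Sox2, 12 (80.0%, against 54.1%) for late blastula Pou5f1-Flag, 13 (86.7%, against 72.4%) at 512 cells and 3 (prickle2a, celsr2 and fzd7a) by Input. The Frizzled receptor genes fzd7b (432 Sox2 reads) and fzd7a (416) led Sox2, prickle1b (152 reads) and ptk7a (151 reads) led late blastula Pou5f1-Flag, and dvl2, a Dishevelled gene (202 reads), and wnt11f2, a Wnt ligand gene (166 reads), led the 512-cell list. Vangl1, the paralog of vangl2, was in no list, as were celsr1a, celsr1b, ror2 and daam1a. Vangl2, with its single Sox2 interval of 61 reads, had fewer than fzd7b and fzd7a, which were picked as the genes with the most Sox2 reads here.

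**Figure D4:**
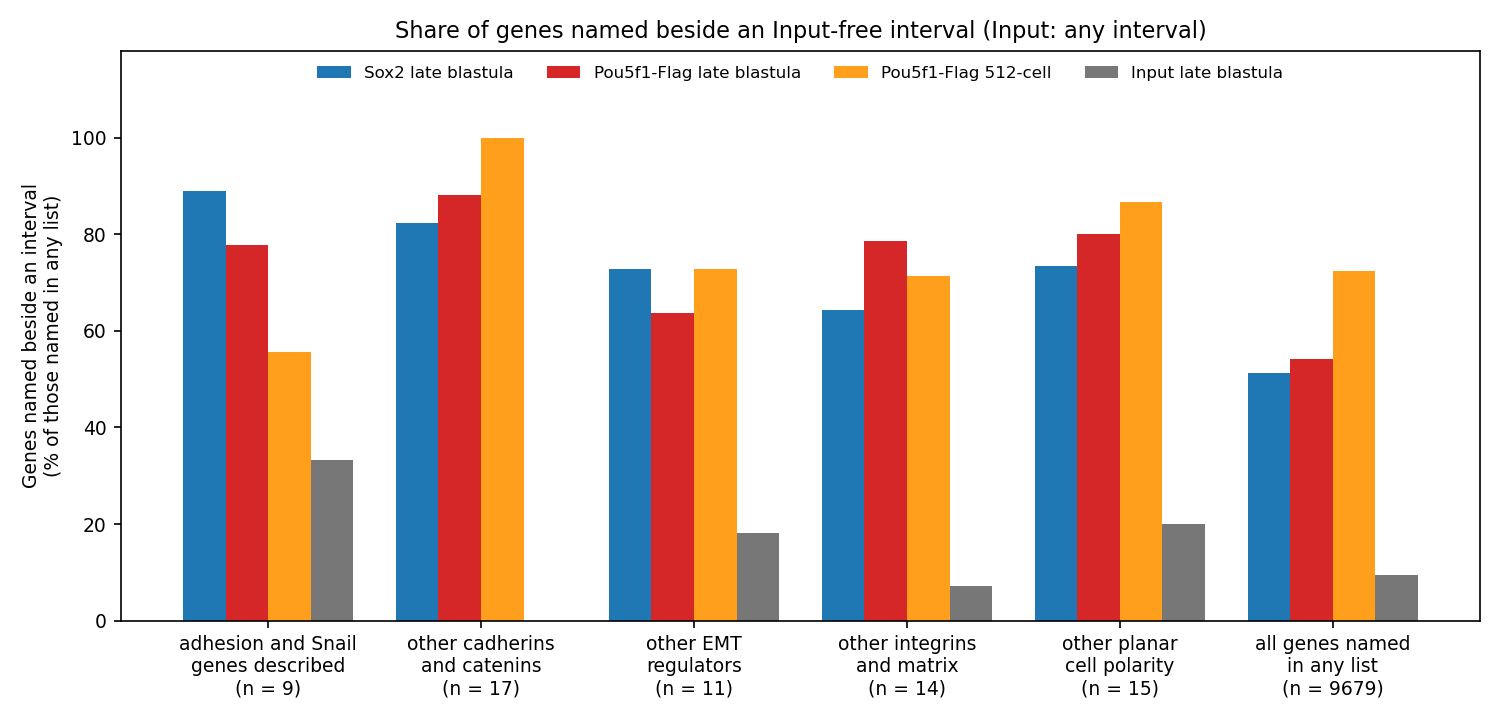
Bars give, for each group of genes on the horizontal axis, the percent of those named in any list that a given list names beside an Input-free interval (for Input, any interval), with the number of genes below each label. The 9 named genes described first have 88.9% for Sox2, 55.6% at 512 cells and 33.3% for Input, and the bars at the far right give all 9679 named genes, with 51.2%, 72.4% and 9.39%.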

How the data were processed

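The deposited files are peak lists, called by the authors for each sample. Per the file headers, each interval carries read counts (all, forward and reverse), a false discovery rate in percent, a Wilcoxon filter p-value, a normalized difference (a fraction of reads, not used) and a gene on each side. The identifiers name Zv9 in 3 lists. The 512-cell list names no build, and Zv9 was assumed since 93.9% of its 836 intervals shared with late blastula Pou5f1-Flag had a flanking gene in common. Per the submitters' processing notes CASAVA was used. Aligner and peak caller: not given in the sources used here. Per the design text, Pou5f1 was run in technical duplicates. Late blastula Pou5f1-Flag intervals go through the chromosomes in 2 passes, and both were kept.

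Accessions were matched to symbols through a RefSeq table of GRCz12tu (92.0% to 95.6% per list). An accession without a match was counted as a gene of its own. In 3382 of 3419 gene and list pairs the first gene column was at lower coordinates. Sharing meant an overlap of at least 1 bp, tested on simulated intervals. Library depth is unknown, so reads were ranked within a list and given exact Poisson intervals of 95%, and shares exact binomial ones, for counting error only. No test between groups was possible with 1 sample each. Alternatives changed the false discovery rate, the overlap, the treatment of Input, the pass and the ranking. Members and gene lists were chosen with earlier results of these data known. All 10 genes are named, with the 2 leading genes of each other list per ChIP list, and those in no list. Pk1a, pk1b and pk2a were matched by hand to prickle1a, prickle1b and prickle2a. No sequence is printed, since no genome of the files' build was used here. Python 3.11.15, pandas 2.3.3 and SciPy 1.17.1 were used.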

Additional observations from a re-analysis of the deposited data

How the results depend on the processing

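Over 10 results and 51 alternatives, 48 values kept within the limits set (for a share, its binomial interval) and 3 did not. Some alternatives could not change the value, such as keeping Input-overlapping intervals for the Input list. The same holds for the second pass alone where 512-cell intervals are set against Sox2. The limits for shares were also wide, such as 13.7% to 46.7% and 0 to 16.8%. The 48 are thus no measure of how firm the results are. With a false discovery rate of 1% or less, which 18.7% of the 512-cell intervals meet, that list named 2 of the 10 genes in place of 5, and 13 of the 83 other genes were in all 3 ChIP lists in place of 34. Shares of all named genes at that limit were not computed. With Input-overlapping intervals kept, the number of gene and ChIP list pairs whose strongest interval was in the top 10% of its list went from 3 to 9 of 20. Leaving out fn1a or cdh2, chosen after seeing the data, gave Sox2 shares with late blastula Pou5f1-Flag of 31.8% and 29.2%, counting NM_131066, also chosen after seeing the data, 29.7%, and a false discovery rate of 1% or less in both lists 16.7%, against 28.1%. The small numbers of intervals limit every share. No paired analysis was possible because each group holds 1 sample.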

Other observations

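The late blastula Pou5f1-Flag list holds 9 intervals of these genes in its first pass through the chromosomes and 29 in its second. Of the 9, 6 overlapped an interval of the second pass. The 5 of these that were Input-free had 58 and 99 reads beside cdh2, 52 and 119 beside itga5, 53 and 53 beside snai2, 78 and 93 beside cdh1 and 21 and 53 beside fn1a, first pass first. The labels do not say what the passes are.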
